A study of Caenorhabditis elegans with 2 samples.

Results

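Of the 2052 peaks of the tagged homeodomain protein CEH-82 in the list thresholded for reproducibility, 367 lay on autosomes and away from the starts of protein-coding genes. These 367 peaks, the members in the plots, are described here. A peak belonged to them when its summit was in no window of 1000 bp upstream to 200 bp downstream of a protein-coding transcript start and not within 200 bp of a tRNA, snoRNA or snRNA gene. The autosomes held 1705 of the 2052 peaks. Another 1254 autosomal peaks had summits in promoter windows, and 84 lay near a small RNA gene outside such windows. By place, 238 of the 367 summits were intergenic, 120 were in introns and 9 were in exons. These classes and the flanking genes rest on protein-coding genes alone, so an intergenic summit can lie inside a noncoding gene or a pseudogene. Over all classes, 37 summits lay inside a gene annotated as ncRNA.

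The measurements came from chromatin immunoprecipitation and sequencing (ChIP-seq) of L1 larvae, the first larval stage, of Caenorhabditis elegans, a nematode, used whole, with 2 biological replicates and 1 group. The animals were of strain OP212, mixed in sex, with the genotype unc-119(ed3) III; ddEx58, and they stably expressed F45C12.2 (ceh-82) with a GFP-FLAG tag at its C-terminal end. Chromatin was sheared by sonication, and the age in hours was unknown. All values come from 1 transgenic line, and every cell type of the larva was pooled. The sources used here name neither the promoter that drives the tagged protein nor the read depth, which leaves the precision unknown, and no control library was analysed here.

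Homeodomain proteins are transcription factors that bind DNA through a helix-turn-helix fold, often at a short core rich in A and T. In the compact C. elegans genome most regulatory DNA lies just upstream of genes, and further elements are known in long introns, above all first introns, and in the longer stretches between genes. A ChIP-seq peak marks where the tagged protein, or other proteins bound with it, were cross-linked to DNA. It does not name the gene that the site may act on.

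Short sequence elements recurred at the sites away from promoters, and 12 windows are printed here, 6 in introns and 6 intergenic. They were taken in order of signal but passing over 1 autosome, so the 6 intergenic windows are not the 6 strongest intergenic sites. Each run is the 100 bp around a summit, read 5′ to 3′ on the plus strand of WBcel235 (ce11) from the RefSeq genome. Capitals mark GAGAG or its reverse complement CTCTC, and an 8-base word, AGACGCAG or its reverse complement CTGCGTCT.
Intron of Y111B2A.12, chrIII:12612636-12612735: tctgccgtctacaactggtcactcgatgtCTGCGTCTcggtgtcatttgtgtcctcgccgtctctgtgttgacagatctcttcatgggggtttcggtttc
Intron of Y56A3A.7, chrIII:11946495-11946594: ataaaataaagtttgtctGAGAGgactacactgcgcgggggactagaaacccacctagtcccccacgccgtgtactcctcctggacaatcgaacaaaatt
Intron of pqn-41, chrIII:1926550-1926649: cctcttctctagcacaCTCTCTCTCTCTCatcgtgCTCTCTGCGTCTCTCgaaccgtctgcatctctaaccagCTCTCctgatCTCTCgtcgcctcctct
Intron of pqn-41, chrIII:1925309-1925408: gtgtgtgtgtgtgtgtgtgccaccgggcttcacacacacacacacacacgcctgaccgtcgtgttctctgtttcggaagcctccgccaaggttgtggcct
Intron of epg-9, chrIV:2602116-2602215: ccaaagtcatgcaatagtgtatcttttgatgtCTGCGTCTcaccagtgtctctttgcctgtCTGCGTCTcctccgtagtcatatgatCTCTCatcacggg
Intron of unc-119, chrIII:10905263-10905362: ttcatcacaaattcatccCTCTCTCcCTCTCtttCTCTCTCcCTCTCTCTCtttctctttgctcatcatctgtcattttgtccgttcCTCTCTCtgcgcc
Between cutl-22 and cmd-1, chrV:1151463-1151562: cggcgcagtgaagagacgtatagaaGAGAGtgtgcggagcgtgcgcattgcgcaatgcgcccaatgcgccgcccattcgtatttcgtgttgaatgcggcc
Between chw-1 and egl-9, chrV:10466721-10466820: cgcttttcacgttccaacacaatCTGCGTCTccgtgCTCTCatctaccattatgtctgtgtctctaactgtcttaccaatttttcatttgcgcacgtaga
Between F38A6.4 and hif-1, chrV:20778357-20778456: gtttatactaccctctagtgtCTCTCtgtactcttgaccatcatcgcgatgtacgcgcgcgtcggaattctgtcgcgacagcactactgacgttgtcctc
Between F58D12.1 and F58D12.3, chrV:14055176-14055275: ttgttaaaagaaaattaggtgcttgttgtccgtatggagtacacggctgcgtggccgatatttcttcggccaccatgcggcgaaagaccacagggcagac
Between aakg-1 and gldi-8, chrIII:12583628-12583727: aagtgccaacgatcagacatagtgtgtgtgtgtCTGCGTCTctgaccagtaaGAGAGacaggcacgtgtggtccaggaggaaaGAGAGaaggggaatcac
Between F54F12.1 and Y39E4B.6, chrIII:13062596-13062695: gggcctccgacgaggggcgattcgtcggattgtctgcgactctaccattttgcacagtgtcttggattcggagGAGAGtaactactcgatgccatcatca
The epg-9 window holds the 8-base word at 2 places, the unc-119 window holds a stretch of C and T and not the word, and the cutl-22 window holds a single GA element. The pqn-41 window at 97.4 of signal and the one between F58D12.1 and F58D12.3 hold neither the word nor GAGAG.

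The GA element marked summits away from promoters more often than promoter summits. GAGAG, searched on both strands in the 100 bp at the summit, was present at 258 of 367 sites (70.3%, 95% Wilson interval 65.4 to 74.7), against 38.4% of the 1254 promoter peaks (adjusted p = 5.5e-26 by Fisher's exact test, odds ratio 3.79 with an interval of 2.95 to 4.87). A second element, GTCTC with its reverse complement GAGAC, was present at 218 sites (59.4%), against 38.4% of promoter peaks (odds ratio 2.35, Fisher's exact test, adjusted p = 7.82e-12). The 2 elements can overlap by several bases, and 172 sites held both. The elements tested were chosen with earlier results of these data known, so these p-values are not independent support for them. Among all the 25635 autosomal protein-coding starts, the 100 bp just upstream held GAGAG at 16.8% and GTCTC at 12.9%.

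The other reference was the pooled relaxed list, which serves as input to the reproducibility threshold and mixes weak peaks with background. Of its autosomal entries that met the same rule of position, 2.42% were in the thresholded list, against 15.2% of those in promoter windows. The remaining 14769 entries, called relaxed-only peaks here, held GAGAG at 17.6% (adjusted p = 3.19e-104 by Fisher's exact test, odds ratio 11.1 with an interval of 8.84 to 13.9) and GTCTC at 14.3% (odds ratio 8.78). They were much weaker, with a median signal of 5.95 and a highest of 22.3. Against only the 731 strongest of them, both elements still passed the test, with odds ratios of 2.83 for GAGAG and 2.92 for GTCTC. When only windows with 40 to 60% G and C were compared, an alternative added after seeing the data, the odds ratios for GAGAG were 3.50 against promoter peaks and 6.16 against relaxed-only peaks.

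The core of most homeodomain sites was scarce at these summits. TAAT or its reverse complement ATTA was present at 92 sites (25.1%), against 35.2% of promoter peaks (adjusted p = 0.000856 by Fisher's exact test, odds ratio 0.615 with an interval of 0.472 to 0.799). It was present at 58% of relaxed-only peaks (odds ratio 0.242, Fisher's exact test, adjusted p = 4.58e-36) and, as a description, in 62.9% of windows moved 300 bp to the right of these 367 summits. Against only the relaxed-only peaks with the highest -log10 q, the odds ratio was 0.731 and no longer passed, and in 60 bp windows the difference from promoter peaks no longer passed either (odds ratio 0.760). GATAA, the core of GATA factor sites, was present at 5.18% of sites, against 11.9% of promoter peaks and 20% of relaxed-only peaks, and passed both tests.

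Summits away from promoters were rich in G and C, with a median of 49% in 100 bp, against 48% at promoter peaks, 37% at relaxed-only peaks and 34% in windows moved 300 bp to the right. At or above 50% lay 48.5% of sites, against 39.6% of promoter peaks (odds ratio 1.43, Fisher's exact test, adjusted p = 0.00732). In 60 bp windows that difference turned round and passed in the other direction (odds ratio 0.693). Against relaxed-only peaks the share was higher in the 367 sites (48.5% against 8.06%, odds ratio 10.7). Of the 14 sequence features tested, 7 passed against promoter peaks and 13 against relaxed-only peaks.

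**Figure D1:**
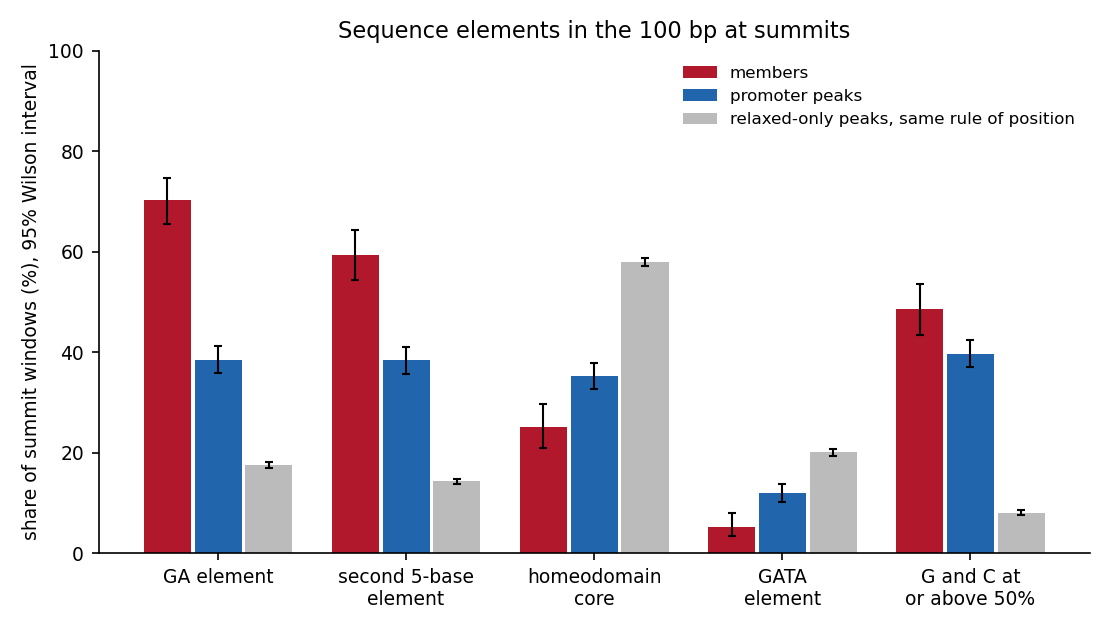
Share of peaks (%) with each sequence feature in the 100 bp at the summit, for the 367 members (red), 1254 promoter peaks (blue) and 14769 relaxed-only peaks (grey), with 95% Wilson intervals as bars. The GA element was GAGAG and the second element GTCTC, each on both strands. Both stood higher in members than in either of the other sets of peaks, and the homeodomain core stood lower.

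The 8-base word AGACGCAG was picked after the sequences had been read, so it is given as a description with no test. It was present at 114 of the 367 summits (31.1%), at 11.7% of promoter peaks, 10.8% of the 731 strongest relaxed-only peaks and 1.66% of all relaxed-only peaks. It stood in 33.6% of intergenic windows and in 25% of intron windows. In the windows 300 bp to the right of the 367 summits it was found at 3 (0.817%), and in the 100 bp upstream of all autosomal starts at 1.34%. The word often continued the second element: at 100 of the 114 sites GAGAC ran into it, and 86 of the 114 sites also held GAGAG. The word, GAGAG or GTCTC was present at 307 of the 367 sites (83.7%).

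Most copies of the word were not in peaks. It occurred 5291 times on the autosomes, and 395 of these (7.47%) lay inside a thresholded peak. The share of autosomal sequence inside thresholded peaks is not given, so the 7.47% has no reference and does not show whether the word is concentrated in peaks. Sites with the word had a median signal of 35.1, against 34.5 at sites without it. On the X chromosome, 110 thresholded peaks met the same rule of position, and 14 of them (12.7%) held the word and 44 (40%) held GAGAG, values given without a test.

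**Figure D2:**
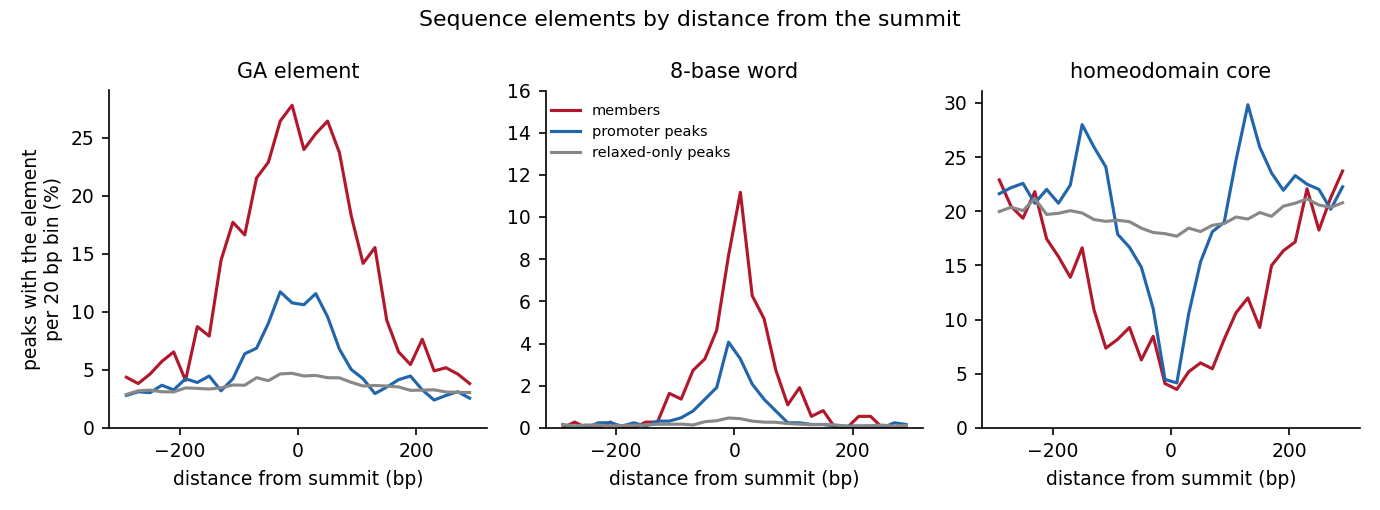
Share of peaks (%) with each element in 20 bp bins, by distance of the bin from the summit (bp), for members (red), promoter peaks (blue) and relaxed-only peaks (grey). The word peaked within 20 bp of member summits (11.2% in the bin just right of the summit) and was at 0 in the outermost bins, and the GA element spread more broadly. In that central bin the homeodomain core stood at 3.54% of members and 4.15% of promoter peaks, and in the outermost bin to the right at 23.7% of members and 22.2% of promoter peaks, so both sets of peaks showed the dip. The dip was wider in members: in the bin 110 bp left of the summit the core stood at 7.36% of members and 24.1% of promoter peaks.

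The sites away from promoters were weaker than promoter peaks. Signal, the authors' score for a peak in the pooled libraries, had a median of 34.6 in the 367 sites (range 22.4 to 160), against 43.9 in promoter peaks (22.3 to 406). It was above the median of the whole thresholded list (39.8) at 144 of 367 sites (39.2%), against 55.3% of promoter peaks (adjusted p = 1.19e-07 by Fisher's exact test, odds ratio 0.521 with an interval of 0.411 to 0.661). Of the strongest 100 thresholded peaks 3 were among the 367, and of the strongest 500 there were 45. Both are lower shares than 367 of all 2052 thresholded peaks. Between intron and intergenic sites the difference in this share did not pass (40% and 38.7%, adjusted p = 0.819 by Fisher's exact test, odds ratio 1.06 with an interval of 0.675 to 1.66). At the edge of the promoter window, the nearest site outside lay 1003 bp upstream of a start with a signal of 60.3, and the farthest peak inside lay 999 bp upstream with 54.6.

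**Figure D3:**
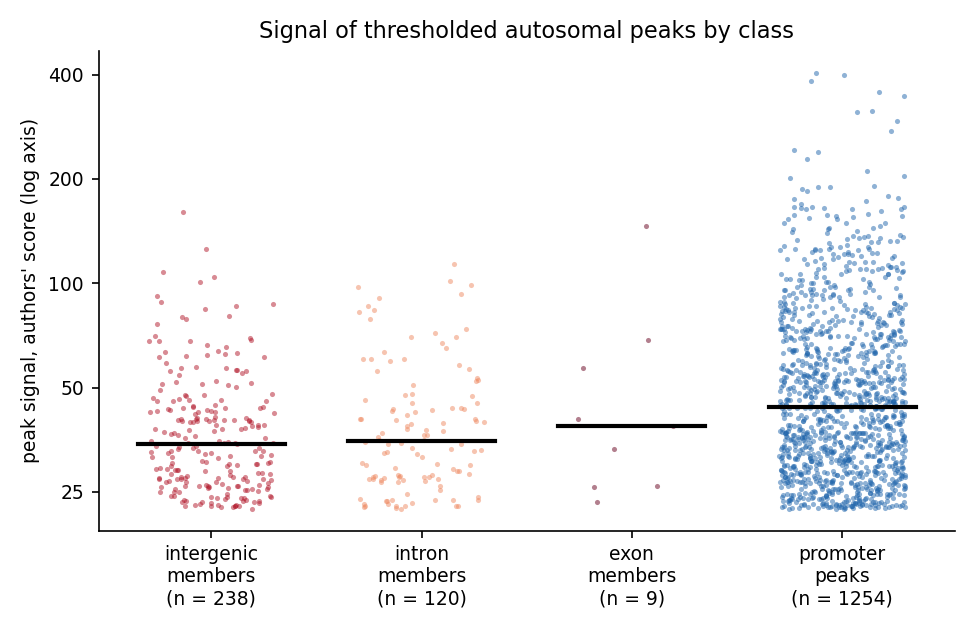
Signal of each thresholded autosomal peak (authors' score, log axis) for 238 intergenic, 120 intron and 9 exon members and 1254 promoter peaks, with the median as a black line. The medians of the 3 member classes lay between 34.4 and 38.7, below the 43.9 of promoter peaks, and the ranges overlapped widely.

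All 367 sites overlapped a relaxed peak of replicate 2, and 344 overlapped one of replicate 1, but the list of replicate 2 is longer (30000 entries, against 16551), so these counts do not compare the replicates. Recovery was therefore counted among equal numbers of the strongest peaks. Among the 2052 strongest peaks of replicate 1 lay 253 of the sites (68.9%), against 76.2% of promoter peaks (adjusted p = 0.0105 by Fisher's exact test, odds ratio 0.692 with an interval of 0.535 to 0.894) and 74.5% of all thresholded peaks. Among those of replicate 2 lay 335 (91.3%), against 93.6% of promoter peaks (adjusted p = 0.128 by Fisher's exact test, odds ratio 0.713 with an interval of 0.465 to 1.09) and 92.9% of all thresholded peaks. In all, 227 sites were among the strongest in both replicates and 6 in neither. When any relaxed peak of replicate 1 counted, its difference did not pass (odds ratio 0.884).

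**Figure D4:**
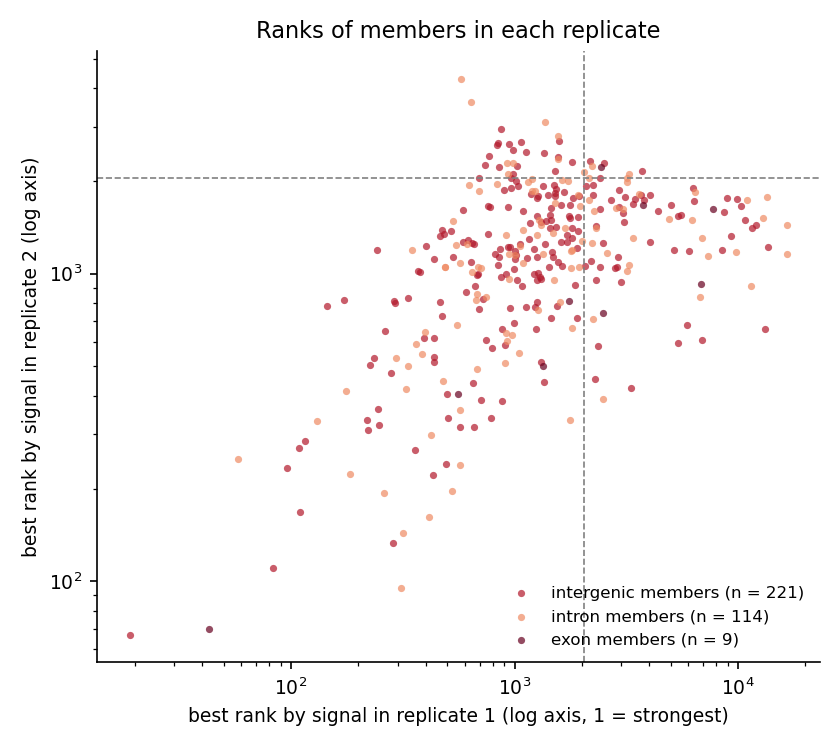
Best rank by signal of each member in replicate 1 (x axis) and replicate 2 (y axis), both log axes with 1 as the strongest, for the 344 members found in both, and dashed lines at rank 2052. The strongest sites ranked high in both replicates, and the points right of the vertical line are sites that replicate 1 ranked lower.

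Intergenic sites made up most of the set, and exons held few. Of relaxed peaks that met the rule of position, 4.66% of the intergenic ones were in the thresholded list, against 2.11% of those in introns and 0.207% of those in exons. The 238 intergenic sites were 64.9% of the 367 (59.8 to 69.6), against 32.9% of relaxed-only peaks (adjusted p = 1.13e-34 by Fisher's exact test, odds ratio 3.76 with an interval of 3.03 to 4.67), and the 9 exon sites were 2.45%, against 29.3% (adjusted p = 1.43e-40 by Fisher's exact test, odds ratio 0.0606 with an interval of 0.0312 to 0.117). Introns held 32.7%, against 37.8% (odds ratio 0.801, Fisher's exact test, adjusted p = 0.0496), a difference at the threshold that did not pass under 6 of the 10 alternatives that changed it. Against the strongest relaxed-only peaks the intergenic odds ratio was 1.79 and the exon one 0.245, and both passed.

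The strongest intergenic site lay at 1151474 to 1151567 on chromosome V, in the 9769 bp between cutl-22, a cuticulin-like gene, and cmd-1, which encodes calmodulin, 4758 bp upstream of cmd-1 and within 200 bp of the long noncoding RNA gene linc-128. Its pooled signal was 160, with a rank of 19 in replicate 1 (signal 46.1) and 67 in replicate 2 (signal 114.5). The next, between nlp-40, which encodes an intestinal neuropeptide-like protein, and rcor-1, a CoREST-like chromatin gene, had a pooled signal of 125 and ranks of 83 and 110. These were the only intergenic sites within the 100 strongest thresholded peaks.

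The intergenic sites of rank 3 and 4 stood beside egl-9 and hif-1. One lay 1746 bp upstream of egl-9, which encodes the prolyl hydroxylase that marks HIF-1 for destruction, with a pooled signal of 107 and ranks of 287 in replicate 1 and 133 in replicate 2. The other lay 2000 bp upstream of hif-1, which encodes that transcription factor, with a signal of 104.3 and ranks of 110 and 168. The first held the 8-base word and the second did not, as the sequences above show.

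The other 6 of the 10 strongest intergenic sites had signals from 84.1 to 101. They lay between F58D12.1 and F58D12.3 (101), casc-3, which encodes a core protein of the exon junction complex, and W08E3.4 (91.6), F58D5.7 and F58D5.5 (88.2), aakg-1, a gamma subunit of AMP-activated kinase, and gldi-8 (86.95), F54F12.1 and Y39E4B.6 (86.1), and F40E3.3 and mage-1 (84.1). All 6 were among the 2052 strongest peaks of each replicate, with ranks from 96 to 495 in replicate 1 and from 221 to 286 in replicate 2.

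Intergenic sites were seldom between the 3′ ends of 2 genes. Between convergent genes lay 13 of the 238 (5.46%), against 12.1% of relaxed-only intergenic peaks (adjusted p = 0.00284 by Fisher's exact test, odds ratio 0.419 with an interval of 0.238 to 0.738). Tandem pairs held 61.3%, against 56.6%, and divergent pairs held 33.2%, against 31.2%, and neither passed. Against the strongest relaxed-only peaks the difference did not pass, with 6.47% between convergent genes (odds ratio 0.835, adjusted p = 0.729 by Fisher's exact test). The stretch between the flanking genes had a median of 5624 bp, against 7123 bp for relaxed-only peaks.

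Of the 238 intergenic summits, 194 (81.5%) lay upstream of the nearest protein-coding start, 67 of them by 1001 to 1500 bp, 36 by 1501 to 2000 bp and 81 by 2001 to 5000 bp. The same share is not given for relaxed-only intergenic peaks, so the 81.5% is a description without a reference. Over all 367 sites, 148 (40.3%) lay upstream of some start within 2000 bp, against 24.2% of relaxed-only peaks (adjusted p = 2.01e-11 by Fisher's exact test, odds ratio 2.11 with an interval of 1.71 to 2.61). It passed against the strongest relaxed-only peaks too (odds ratio 1.58). With a promoter window of 2000 bp, 219 sites remained.

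Intron sites lay in long introns of long genes. The host genes had a median length of 11659 bp over the 120 sites, against 8522 bp for relaxed-only intron peaks and 1964 bp for all autosomal protein-coding genes. The intron had a median length of 4144 bp, against 1065 bp, and was over 1000 bp long at 106 of 120 sites (88.3%), against 52.2% (adjusted p = 2.26e-16 by Fisher's exact test, odds ratio 6.93 with an interval of 3.96 to 12.1). It was a first intron at 66 sites (55%), against 32.3% (adjusted p = 8.29e-07 by Fisher's exact test, odds ratio 2.56 with an interval of 1.78 to 3.69). The summit was in the first 33.3% of the gene at 59 sites (49.2%), in the middle at 45 and in the last 33.3% at 16, against 36.8% of relaxed-only peaks in that first section (adjusted p = 0.00721 by Fisher's exact test, odds ratio 1.66 with an interval of 1.16 to 2.39).

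Against the strongest relaxed-only peaks no difference in gene position passed. Of the 292 such intron peaks, 86.6% were in introns over 1000 bp (odds ratio 1.17), 55.1% in a first intron (odds ratio 0.995) and 48.3% in the first 33.3% of the gene (odds ratio 1.04), and none of the 3 differences passed (adjusted p = 1 each, Fisher's exact test). Among introns over 1000 bp alone, an alternative added after seeing the data, the first 33.3% of the gene no longer passed against all relaxed-only peaks (odds ratio 1.26). A transcript start of the host gene itself lay within 2000 bp downstream of the summit at 34 of 120 sites (28.3%), at 16.8% of the strongest relaxed-only intron peaks and at 9.65% of all of them, shares given without a test.

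**Figure D5:**
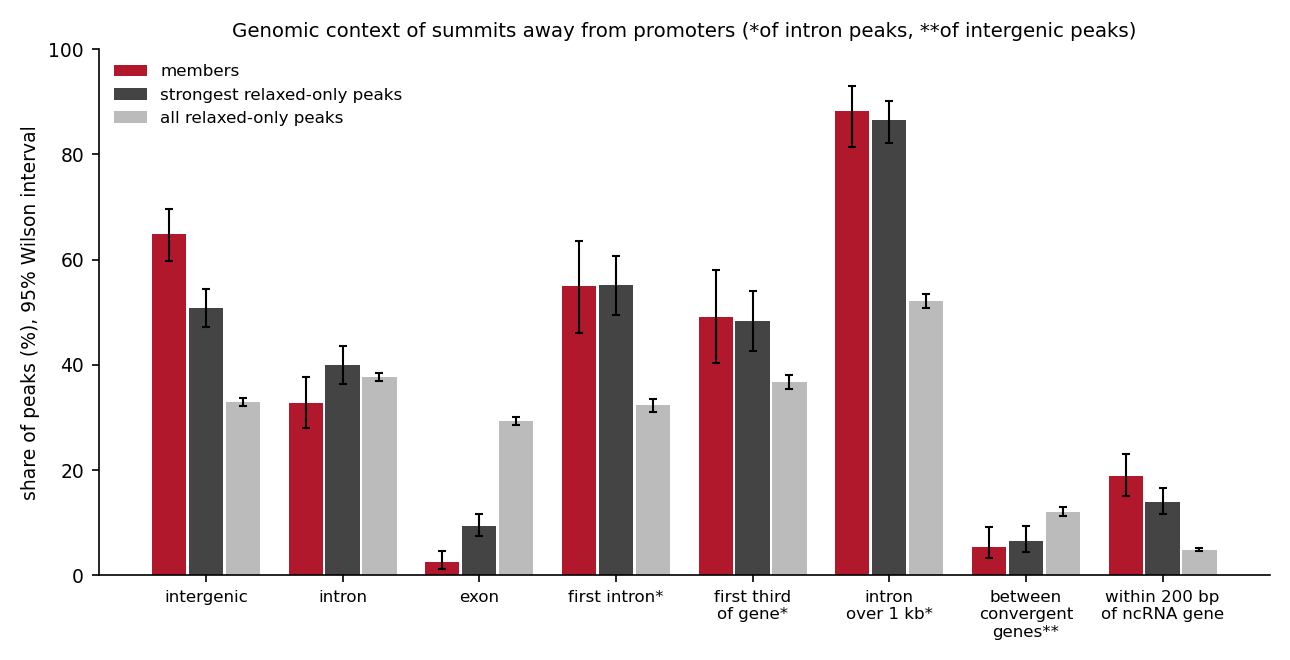
Share of peaks (%) in each genomic context for the 367 members (red), the 731 strongest relaxed-only peaks (dark grey) and all 14769 relaxed-only peaks (light grey), with 95% Wilson intervals. Members stood above both sets in intergenic sequence and below both in exons, while for first introns, gene position and intron length the members lay beside the strongest relaxed-only peaks (88.3% and 86.6% in introns over 1000 bp).

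The strongest intron site was in Y111B2A.12, 23.5% of the way along the 14452 bp gene in an intron of 7076 bp, with a pooled signal of 114 and ranks of 311 in replicate 1 and 95 in replicate 2. The next was in Y56A3A.7 (signal 102), in an intron of 247 bp, which was among the 14 of 120 at or under 1000 bp. A pair in the 7776 bp intron of pqn-41, a gene for a glutamine-rich protein known for a role in the death of the linker cell, followed with 98.6 (ranks 58 and 249) and 97.4 (ranks 415 and 162). The site in epg-9, an autophagy gene of the Atg101 family, had 93.1 and ranks of 184 and 223.

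The remaining 9 of the 15 strongest intron sites had signals from 67.4 to 85.7. The zfp-1 site had a signal of 85.7, in a gene for a chromatin protein of the AF10 family, and the mnk-1 site 83.9, in a gene for a kinase that acts on a translation initiation factor. Next were kin-4, a MAST-family kinase gene (82.9), gei-4 (79.1), ints-8, a subunit of the Integrator complex (73.9), W06H8.6 (71.7), larp-1, a La-related RNA-binding protein (70.1), spop-1, a ubiquitin ligase adaptor (70.1), and Y62E10A.13 (67.4). Ranks in replicate 2 ran from 196 to 502 for these 9, and in replicate 1 all lay within the strongest 2052, from 130 for mnk-1 to 1769 for Y62E10A.13.

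A further strong site lay in an intron of unc-119, which encodes a lipid-binding chaperone of neurons. The strain carries the ed3 allele of this gene. The site had a signal of 90.7 and ranked 261 in replicate 1 and 193 in replicate 2. The sources used here do not say whether the array ddEx58 holds copies of unc-119 sequence, so signal from the chromosome and from the array cannot be told apart at this site. At ceh-82 itself, chromosome II at 1732232 to 1733291, the nearest of the 367 sites was 462451 bp away. A peak in the promoter window of ceh-82 could not be among the 367, so this distance does not test for signal from the transgene.

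Just 3 genes hosted 3 or more intron sites. ppfr-1, a regulatory subunit gene of protein phosphatase 4, held 5 sites, with signals from 34.3 to 50.8. The strongest of them overlapped no relaxed peak of replicate 1 and ranked 413 in replicate 2, so it rests on replicate 2, while the others ranked from 489 to 1808 in replicate 1 and from 666 to 1234 in replicate 2. pqn-41 held 4, with signals of 98.6, 97.4, 43.5 and 37.6, of which the weakest ranked 6778 in replicate 1. zfp-1 held 4, with signals of 85.7, 59.6, 42.6 and 23.1, all within the strongest 2052 of replicate 1. Another 7 genes held 2 each, among them daf-16, which encodes the FOXO factor of insulin signalling (27.2 and 22.4), and hlh-30, the TFEB-like factor of autophagy and lysosome genes (52.2 and 41.5).

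All 9 exon sites had their summits in untranslated parts of exons and none in annotated coding sequence. The share in untranslated parts is not given for relaxed-only exon peaks, so this describes the 9 sites without a reference. In 6 genes it was the 5′ UTR: C34C12.2, ZK484.6, rsbp-1, egl-30, R08C7.12 and F21C10.3. In the other 3 it was the 3′ UTR: C05D11.8, eat-16 and F37C4.6. The strongest was C34C12.2 on chromosome III (146.7), which ranked 43 in replicate 1 and 70 in replicate 2 and was the remaining member of the strongest 100. ZK484.6 had a signal of 68.7 and C05D11.8 of 57.1.

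In the middle of the exon sites by signal stood rsbp-1, egl-30 and eat-16. egl-30, the Gq alpha subunit, had 38.7 (ranks 1751 and 814), eat-16, an RGS protein that turns Gq off, had 33.3 (ranks 6849 and 927), and rsbp-1, an RGS-binding protein, had 40.5 (ranks 2476 and 744). The last 2 lay outside the strongest 2052 of replicate 1 and so rest mainly on replicate 2. The eat-16 summit also lies within the bounds of ocrl-1. R08C7.12 (25.8), F37C4.6 (26.1) and F21C10.3 (23.4) were near the lower limit of the list, and ranked from 2443 to 7737 in replicate 1.

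Gene lists were counted by hosts and flanking genes and described without a test. Of all 17242 autosomal protein-coding genes, 536 hosted or flanked one of the 367 sites (3.11%). Synaptic and axon guidance genes had 17 of 70 (24.3%), and they are long genes, with a median of 8342 bp. After unc-119 the strongest were snb-1, the synaptobrevin gene (signal 57.3), unc-51, a kinase of axon growth (50.96), and zig-9 (47.7). Further members were unc-104, the kinesin that carries synaptic vesicle precursors (44.2), unc-31, a factor of dense core vesicle release (32.3), ric-4, a SNAP-25 gene (30.6), unc-64, the syntaxin gene (27.2 and 23.1), and snt-1, the synaptotagmin gene (23.4). The rest were unc-33 (45.7 and 32.3), egl-3 (42.4), syd-1 (37.5), unc-70 (34.7), unc-57 (29.8), plx-1 (27.8), unc-76 (26.1) and ric-7 (24.1).

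The list made for G protein signalling also takes in every kin and pkc gene by name, and so kinases of other pathways. It had 9 of 68 (13.2%, median length 4396 bp), with kin-4 (82.9), kin-19, a casein kinase gene (44), gpb-1, the G protein beta subunit with 3 sites (42.4, 35.9 and 23.8), and egl-30 first among them. The list of bHLH, GATA, forkhead, SOX, T-box, zinc finger, ETS and bZIP factors had 10 of 113 (8.85%), led by the bZIP gene zip-7 (79.0), ztf-27 (59.0), fos-1, an AP-1 factor (55.3), and hlh-30. Nuclear hormone receptors had 8 of 247 (3.24%), led by nhr-20 (68.05), nhr-88 (62.03), nhr-46 (60.3) and nhr-19 (53.2), and homeobox genes had 3 of 67 (4.48%), ceh-48 (38.9), lin-11 (27.4) and ceh-24 (23.8), near the share of all genes.

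Chemoreceptor genes (median length 1637 bp) had 5 of 1331 (0.376%), led by srw-60 (62.03, the site it shares with nhr-88) and sre-3 (55.9). The list made for cuticle collagen and moulting genes (1439 bp) had 2 of 205 (0.976%), col-50 (49.4) and dpy-19 (28.6), the latter in the list by its name. Germline genes (2247 bp) had 1 (0.775%), gld-4 (38.5). The lengths of the first 2 lists lie below the 1964 bp of all genes, and no difference from all genes was tested. Of the other lists, chromatin factors had 3 of 80, led by chd-7 (70.4), intestine genes 4 of 85, led by asp-19 (80.1), proteasome and ubiquitin genes 4 of 84, led by ubc-8 (42.96), and the list made for channels and transporters of excitable cells 4 of 177. That list takes in the tax genes by name and is led by tax-6, calcineurin A, which is a phosphatase (37.0), before lgc-29 (29.3), twk-2 (27.9) and unc-63 (25.6). Ribosomal protein genes had 3 of 80, led by ubl-1 (31.8), whose summit sequence recurs in the genome, and neuropeptides and insulins 2 of 108, led by nlp-40. Muscle genes had 1 of 47 (2.13%), act-1 (32.9), and respiratory chain genes 1 of 38 (2.63%), nuo-4 (67.9). Histone genes had 1 of 76 (1.32%), his-70 (31.6), and translation genes 1 of 68 (1.47%), nars-1 (28.9). The share of all genes was 3.11%.

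Noncoding RNA genes of other kinds lay near some of the summits. Within 200 bp of a gene annotated as ncRNA, a class of short transcripts with mostly unknown roles, lay 69 of 367 summits (18.8%), against 4.91% of relaxed-only peaks (adjusted p = 4.09e-20 by Fisher's exact test, odds ratio 4.49 with an interval of 3.42 to 5.89). Against the strongest relaxed-only peaks, of which 13.95% did, the odds ratio was 1.43 and did not pass (adjusted p = 0.127, Fisher's exact test). One of these genes is rpr-1, the RNA of RNase P, beside the intron site in ints-8 (signal 73.9). MicroRNA genes lay near 4 sites (1.09%, against 0.169% of relaxed-only peaks), at mir-52 (68.6), mir-53 (55.7), mir-8209 (51.1) and mir-87 (23.9). Near piRNA genes lay 2 sites (0.545%, against 3.91%). Of the 6 noncoding types, 5 passed against all relaxed-only peaks, with piRNA genes the only one lower in the 367 sites, and 1 against the strongest.

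By chromosome, I held 87, chromosome II 54, chromosome III 97, chromosome IV 78 and chromosome V 51, which is 7.04 sites per Mb on chromosome III, the densest, and 2.44 on chromosome V, the sparsest. No chromosome passed the test against promoter peaks. Against relaxed-only peaks, chromosome III had a higher share (26.4%, against 19.8%, odds ratio 1.46, Fisher's exact test, adjusted p = 0.00578) and chromosome V a lower one (13.9%, against 22.1%, odds ratio 0.570, Fisher's exact test, adjusted p = 0.000586), but neither passed against the strongest relaxed-only peaks (odds ratios 1.29 and 0.647).

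Autosome arms of C. elegans recombine more and hold more repeats than the centres. With each chromosome divided into 3 equal lengths, 118 sites lay in the first, 135 in the centre and 114 in the last. The centre held 36.8% (32.0 to 41.8), against 41.7% of promoter peaks (adjusted p = 0.205 by Fisher's exact test, odds ratio 0.813 with an interval of 0.640 to 1.03) and 37.1% of relaxed-only peaks (adjusted p = 0.913 by Fisher's exact test, odds ratio 0.985 with an interval of 0.795 to 1.22), so neither difference passed. The share in the centre ran from 29.5% on chromosome IV and 30.9% on chromosome III to 42.6% on chromosome II and 44.8% on chromosome I. When starts of every gene type bounded the promoters, the difference from promoter peaks passed (odds ratio 0.668).

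Nearly all summits were at sequence found once in the genome. The 36 bases at the summit were unique for 360 of 367 sites, and 7 recurred. Of the 7, those on chromosome III at 433117 (signal 34.6) and 3066109 (31.8) had 2110 and 2117 copies, and the others had from 3 to 7.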

How the data were processed

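Peak lists came from ChIP-seq of 2 biological replicates of 1 group, and the labels give the replicate numbers. Per the labels, the assemblies were ce11 and ce10. As the deposited lists are named, relaxed peaks were made for each replicate and for both together and then thresholded by irreproducible discovery rate. Aligner, caller and threshold: not given in the sources used here. Each deposited list gives signal, a score that is never negative, and the -log10 of q, which stood at its ceiling of 3.81 for all thresholded peaks and was used for 1 alternative. Signal was compared within a list only. The relaxed lists held 16551 entries for replicate 1 and 30000 each for replicate 2 and the pool. The ce10 lists were not used.

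Summits were placed on the WBcel235 sequence (RefSeq) with Ensembl release 115 genes. Relaxed-only peaks are pooled relaxed peaks that overlap no thresholded peak by 1 bp or more. The 60 comparisons of peak shares used Fisher's exact test, two-sided, adjusted by Benjamini-Hochberg within each family and comparison and called at 0.05. Odds ratios have 95% Wald intervals and shares 95% Wilson intervals, which cover the counting of peaks only. Neighbouring peaks are not independent, and all peaks come from the same 2 libraries. Where transcripts differ, intron length is that of the shortest intron holding the summit, and a first intron of any transcript counts. Gene lists rest on names, and genes named otherwise are absent from them.

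The members, lists and tests were chosen with earlier results of these data known. The genes named are the hosts of the 15 strongest intron sites, the flanks of the 10 strongest intergenic sites, all exon sites, hosts of 3 or more intron sites, up to 4 genes of each list with the strongest site. ceh-82, which neither hosts nor flanks a site, is named because it is the tagged gene, and signal from the transgene was not tested. The remaining synaptic genes, daf-16, hlh-30, rpr-1 and the microRNA genes were named after their values were seen. Simulated lists drawn at random from relaxed-only peaks were used to check the tests of the 12 short sequence elements and of the ncRNA, centre and intergenic shares. The other tests, the comparisons with promoter peaks and the dependence between neighbouring peaks were not checked in this way. The versions were Python 3.11.15 with NumPy 2.4.6, SciPy 1.17.1, pandas 2.3.3, statsmodels 0.14.6 and matplotlib 3.10.9.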

Additional observations from a re-analysis of the deposited data

How the results depend on the processing

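Over 22 alternatives, 4 of them added after seeing the data, 420 recomputed values were compared. Of these values, 350 kept their direction and their side of the threshold, or for counts stayed within 1.5 times. The 420 values cover only part of the 60 tests. Most sequence features, chromosomes I, II and IV, and the noncoding types other than ncRNA were not followed singly. Several of those had passed in the main comparison, among them microRNA and piRNA genes. They enter the 420 values only through counts of how many passed. The number of sites was 219 with a 2000 bp promoter window and 144 with only signal above the list's median. Values below are odds ratios, and the cause of each change was not tested. The intron share lost its call with the 2000 bp window (0.893), a small RNA distance of 500 bp (0.805), signal above the median (0.824), the highest q only (0.737) and by replicate (0.815 to 0.963). The first 33.3% of the gene lost it with starts of every gene type (1.39), signal above the median (1.58), the highest q (1.01), the strongest relaxed-only peaks (1.04), introns over 1 kb (1.26) and without replicate 2 (1.15), and kept it without replicate 1 (1.63). First introns reversed at the highest q (0.859) and the strongest relaxed-only peaks (0.995), and long introns lost their call in both (1.23 and 1.17). Convergent pairs lost it with signal above the median (0.330), the highest q (0.804), the strongest relaxed-only peaks (0.835), gaps over 4 kb (0.499) and without replicate 2 (0.641), and kept it without replicate 1 (0.397). Divergent pairs, never called, reversed with the 2000 bp window (0.789), signal above the median (0.869), the highest q (0.755) and the strongest relaxed-only peaks (0.839). The ncRNA share lost its call with starts of every gene type (2.39), which removes most such sites, the highest q (1.09) and the strongest relaxed-only peaks (1.43). The centre share against relaxed-only peaks, never called, reversed with the 500 bp window (1.07), signal above the median (1.02), the middle 50% (1.11) and by replicate (1.046 to 1.051), and against promoter peaks it passed with starts of every gene type (0.668). Recovery in replicate 1 lost its call with starts of every gene type (0.812), signal above the median (0.732) and any relaxed peak (0.884), and that in replicate 2 passed with starts of every gene type (0.583) and with the strongest peaks of replicate 1 alone (0.333). G and C content against promoter peaks lost its call with signal above the median (1.47), windows of 40 to 60% (1.25) and without replicate 2 (1.12), kept it without replicate 1 (1.40), and reversed in 60 bp windows (0.693). The homeodomain core lost its call in 60 bp windows against promoter peaks (0.760) and at the highest q (0.731). Intron against intergenic signal, never called, reversed without replicate 2 (0.796). Upstream distance was not recomputed with the 2000 bp window, nor signal with only the stronger peaks, and ce10 counts were not run because no coordinates were converted. No paired analysis was possible because there is 1 group. Depth is unknown, so how it limits these calls cannot be said.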
